A study of Mus musculus with 2 samples.

Results

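Transcript levels of 9 genes used as markers of a regenerative or fetal-like state of the intestinal epithelium were followed in cells sorted as Lgr5-positive intestinal stem cells from wild-type and Srcap-knockout mice. The genes were chosen by name: Clu, Anxa1, Anxa2, Anxa3, Anxa5, Ly6a, Il1rn, Slpi and Il33. All 9 were found among the 17840 genes listed in both libraries. The wild-type library came from Srcap+/+; Lgr5-Cre+ mice and the knockout library from Srcapflox/flox; Lgr5-Cre+ mice given tamoxifen, and whether the wild-type mice also received tamoxifen cannot be read with certainty from the labels. Both groups carried the Cre recombinase under the name Lgr5-Cre, so deletion is tied to cells with Lgr5 activity and to their descendants. Crypts were dissociated and cells were sorted by GFP intensity, without culture. The sources used here give neither age and sex nor the number of mice in each library. There was 1 library per genotype, so every difference given here is between a pair of libraries, has no replicate check and carries no p-value.

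When the crypt base is damaged, surviving epithelial cells can lower the Lgr5 stem cell programme and switch on genes of the fetal gut, a state in which YAP, the transcriptional coactivator restrained by the Hippo pathway, is active. Clu marks rare revival stem cells in this setting, Ly6a (Sca-1) and Anxa1 mark the repairing epithelium, and Il33, Il1rn and Slpi belong to its inflammatory and protective output. None of these genes is restricted to the epithelium. As background, Il33 is made by fibroblasts, endothelial and mesothelial cells, Clu and Slpi by mesothelial cells among others, Ly6a by endothelial cells, fibroblasts and lymphocytes, Il1rn by macrophages and neutrophils, and the annexins by most stromal and myeloid cells. Mesothelial cells form the outer lining of the gut wall.

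Promoter sequence is shown for 4 of the genes because the members differed in the same direction and because YAP acts through TEAD factors. The RefSeq promoter table (build GRCm38.p6, which is the mm10 assembly) held 9 windows for 6 members, each reaching from 250 bases before a transcription start to 50 bases after it, while Clu, Anxa3 and Ly6a had none. Slpi is shown as the member with the largest difference, Anxa1 and Il33 as holders of a TEAD motif and Anxa2 as a holder of an AP-1 motif. Capitals mark the motif matches, and each sequence runs 5′ to 3′ along the gene's strand.
Slpi, chr2:164356458-164356757, minus strand: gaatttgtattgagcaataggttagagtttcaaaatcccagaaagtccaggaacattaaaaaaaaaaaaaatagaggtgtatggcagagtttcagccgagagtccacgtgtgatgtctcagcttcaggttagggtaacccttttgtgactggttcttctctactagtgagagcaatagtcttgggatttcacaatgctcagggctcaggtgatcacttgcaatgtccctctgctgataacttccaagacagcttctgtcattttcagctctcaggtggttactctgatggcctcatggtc
Anxa1, chr19:20390622-20390921, minus strand: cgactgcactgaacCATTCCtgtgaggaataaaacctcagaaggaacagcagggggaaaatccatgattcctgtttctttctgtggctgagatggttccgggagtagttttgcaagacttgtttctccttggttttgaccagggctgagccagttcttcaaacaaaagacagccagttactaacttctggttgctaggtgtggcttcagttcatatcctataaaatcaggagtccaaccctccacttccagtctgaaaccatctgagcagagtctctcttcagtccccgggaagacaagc
Il33 (upstream start), chr19:29924863-29925162, plus strand: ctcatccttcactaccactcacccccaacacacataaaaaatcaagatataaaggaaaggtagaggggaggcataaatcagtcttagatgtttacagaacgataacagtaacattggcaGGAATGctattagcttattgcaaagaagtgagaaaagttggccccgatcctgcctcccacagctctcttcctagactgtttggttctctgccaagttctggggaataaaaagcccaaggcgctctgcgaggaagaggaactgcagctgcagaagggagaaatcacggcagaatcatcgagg
Il33 (downstream start), chr19:29945540-29945839, plus strand: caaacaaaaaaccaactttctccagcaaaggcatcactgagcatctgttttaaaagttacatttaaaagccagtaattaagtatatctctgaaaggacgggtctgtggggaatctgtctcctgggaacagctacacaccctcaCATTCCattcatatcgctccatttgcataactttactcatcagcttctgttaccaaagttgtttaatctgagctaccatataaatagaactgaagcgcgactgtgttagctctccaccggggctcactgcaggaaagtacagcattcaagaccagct
Anxa2, chr9:69453433-69453732, plus strand: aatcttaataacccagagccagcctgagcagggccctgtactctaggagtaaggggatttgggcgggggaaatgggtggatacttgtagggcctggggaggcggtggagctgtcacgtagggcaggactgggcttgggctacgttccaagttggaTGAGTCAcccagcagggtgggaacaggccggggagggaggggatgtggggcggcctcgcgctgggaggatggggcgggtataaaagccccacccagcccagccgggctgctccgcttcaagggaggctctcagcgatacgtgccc
Both strands were searched for TEAD (GGAATG), AP-1 (TGANTCA), STAT (TTCNNNGAA), the interferon-stimulated element and NF-kB motifs, and the matches did not overlap one another, although 2 of the Il1rn windows overlap. TEAD letters were present in 4 of the 9 windows, those of Anxa1, both starts of Il33 and 1 of the Il1rn starts, against 14.7% of the 32851 promoter windows in the table. By gene these were 3 of the 6 members with a window, and no share by gene was computed for all genes. Windows of the same gene are not independent. Binding was not measured, and a part of YAP or TEAD factors in the members' differences was not tested. The AP-1 motif was present in 2 windows, of Anxa2 and Il1rn, against 7.8% of all windows. STAT, interferon-stimulated and NF-kB letters were in 0 of the 9 windows, against 8.3%, 3.4% and 5.8% of all windows. The Slpi and Anxa5 windows held no match.

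All 9 members were higher in the knockout library, and 6 of them were at least 2-fold higher. These were Slpi, Clu, Anxa1, Ly6a, Il33 and Anxa3, while Anxa2, Anxa5 and Il1rn lay within 2-fold. A gene was called when the ratio of FPKM + 1 reached 2-fold and 1 of its values was no smaller than 1 FPKM, where FPKM counts the fragments of a gene per 1000 bases of its transcript for each 1000000 that were mapped. There were 11784 genes with such a value, of which 2.61% were called higher, 0.416% were called lower and 53.4% had a positive log2 ratio. The median log2 ratio of the 9 members was 1.25, against 0.02 for all these genes. Since the members were chosen with earlier results of these libraries known, this contrast is a description. In bulk RNA, more cells of a type and more RNA per cell cannot be told apart.

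**Figure D1:**
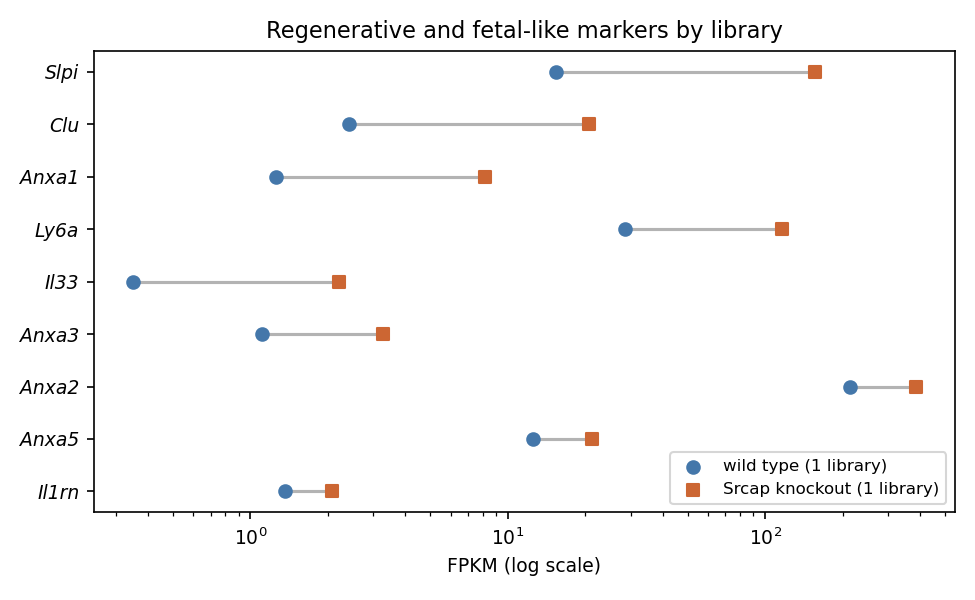
FPKM (log scale) of the 9 members in the wild-type library (circles) and the Srcap-knockout library (squares), ordered by log2 ratio; each point is 1 library. The knockout square lies to the right for every member, with the longest shift for Slpi at the top and the shortest for Il1rn at the bottom.

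Slpi, which encodes a secreted inhibitor of neutrophil serine proteases (chromosome 2, 164354070 to 164356507), had 15.3 FPKM in wild-type and 156 FPKM in knockout cells. This was 10.2-fold higher and the 10th largest log2 ratio (3.27) of the 11784 genes. It took Slpi from the third to the second place among the members, past Ly6a. The low values of the tables imply about 0.0579 FPKM kb per read for wild type and 0.0585 for knockout, so these levels correspond to roughly 232 and 2336 reads. Counting error alone then gives a 95% interval of 8.89 to 11.7 for the fold (exact binomial), which leaves out the variation between mice. Relatives with the same WAP domain were scarce. Of 10 other genes of that list with a row, which also held proteases that SLPI inhibits, 2 reached 1 FPKM. Wfdc1 was at 0.58 and 4.33 FPKM, past 2-fold, and Wfdc17 was at 1.47 and 3.89 FPKM. The neutrophil proteases Elane and Ctsg were listed at 0 in both libraries and Prtn3 at 0 and 0.24 FPKM.

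Clu encodes clusterin, a secreted chaperone (chromosome 14, 65968483 to 65981548). It had 2.42 FPKM in wild-type and 20.6 FPKM in knockout cells, or 8.51-fold higher (counting interval 6.67 to 10.9; log2 ratio 2.66). Its ratio was the 28th largest. In level it was the fifth member in both libraries, and it went from exceeding 46.0% to exceeding 78.3% of all listed genes.

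The interleukin 1 family members, a cytokine and an antagonist, differed in the size of their change. Il33, a nuclear cytokine released from damaged cells (chromosome 19, 29925113 to 29960718), was at 0.35 and 2.21 FPKM, or 6.31-fold higher. It was the least abundant member in the wild-type library, and with roughly 15 reads there its counting interval was wide, from 3.73 to 12. Its log2 ratio was 1.25 with the pseudocount of 1 FPKM but 2.36 with 0.1 FPKM and 0.43 with 5 FPKM, so its call depends on that choice. Il1rn, the antagonist of the interleukin 1 receptor (chromosome 2, 24336860 to 24351491), was at 1.36 and 2.08 FPKM, or 1.53-fold higher, with a counting interval of 1.09 to 2.17. This was the smallest difference of the 9, at place 1627 among the 11784 genes.

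Of 16 other genes of the interleukin 1 list, 11 reached 1 FPKM, 2 of these were at least 2-fold higher, 0 were lower, and the median log2 ratio was 0.28. The cytokine Il1b was at 3.65 and 10.8 FPKM and the receptor chain Il18r1 at 0.25 and 1.7 FPKM. Il18, an epithelial and myeloid cytokine, was at 3.71 and 8.35 FPKM, and the decoy receptor Il1r2 at 1.5 and 3.45 FPKM, both short of the rule. Casp1, the protease that matures IL-1β and IL-18, was the most abundant of the list at 55.5 and 67.7 FPKM. The receptors of the members' own products were low. Il1rl1, the IL-33 receptor, was at 0.21 and 0.43 FPKM and Il1r1 at 0.28 and 0.48 FPKM. These receptors were picked out after their values were seen.

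The 4 annexins, which bind membrane phospholipids in the presence of calcium, separated into low and abundant genes. Anxa1, whose product limits inflammation through formyl peptide receptors (chromosome 19, 20373434 to 20390671), was at 1.26 and 8.17 FPKM, or 6.48-fold higher (counting interval 4.61 to 9.61; log2 ratio 2.02). Anxa3 (chromosome 5, 96793385 to 96845968) was at 1.11 and 3.27 FPKM, or 2.95-fold higher (1.91 to 4.52). With a log2 ratio of 1.02 it was the member just inside the 2-fold rule. Anxa2, which forms a membrane-bound complex with S100A10 (chromosome 9, 69453683 to 69491792), was the most abundant member in both libraries, at 213 and 384 FPKM. It was 1.80-fold higher (1.74 to 1.86), and with a log2 ratio of 0.85 it was the member just outside the rule. Anxa5, known for binding exposed phosphatidylserine on dying cells (chromosome 3, 36448923 to 36475887), was at 12.5 and 21.3 FPKM, or 1.69-fold higher (1.49 to 1.93).

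Relatives of these annexins varied as widely. Of 15 other genes on the list of annexins, S100 partners and formyl peptide receptors, 11 reached 1 FPKM, 10 had a positive log2 ratio, 2 were at least 2-fold higher and 0 lower, with a median of 0.59. Anxa8, an annexin also used as a fetal-like marker, had 0.12 FPKM in wild-type and 5.49 FPKM in knockout cells. S100a6, a calcium-binding protein gene, was at 25.3 and 78.8 FPKM, or 3.11-fold higher, whereas S100a4 was at 2.77 and 6.03 FPKM and Anxa6 at 10.1 and 16.4 FPKM. S100a10, the Anxa2 partner, had the highest mean level at 376 and 568 FPKM, and its log2 ratio was 0.59 beside 0.85 for Anxa2. Anxa4, chosen after its values were seen, was equal in both libraries at 426 and 425 FPKM. The receptors Fpr1 and Fpr2 stayed under 1 FPKM, and Fpr3 was listed at 0 in both libraries.

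**Figure D2:**
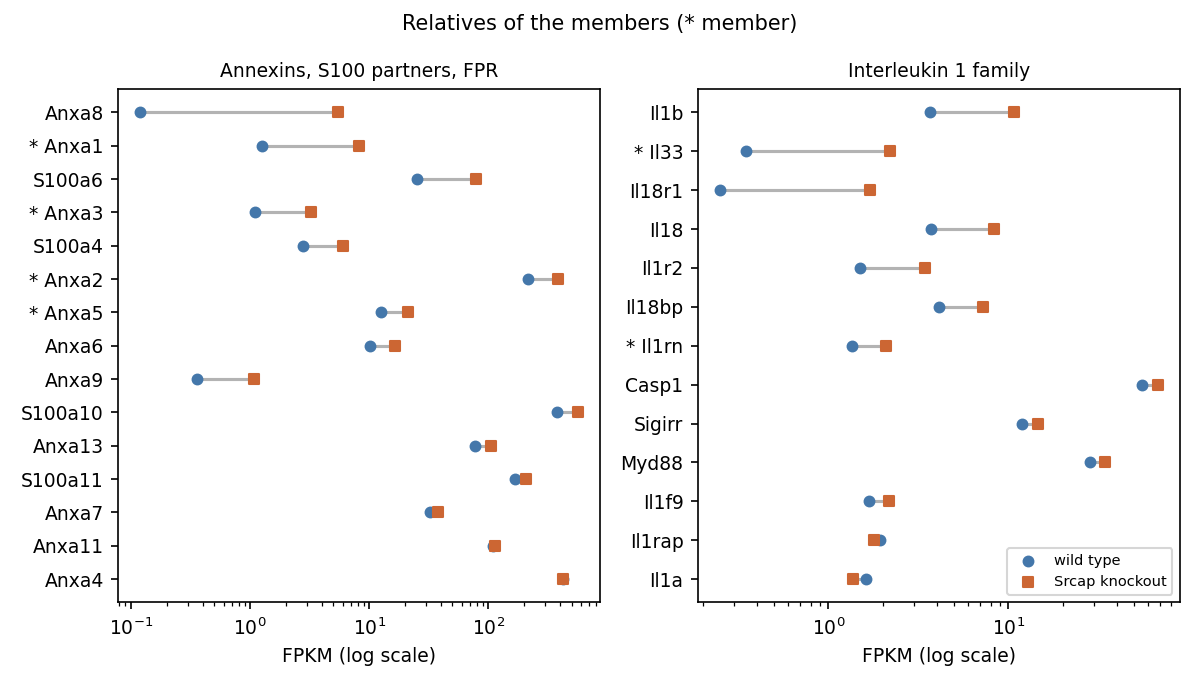
FPKM (log scale) of annexins, their S100 partners and formyl peptide receptors (left) and of the interleukin 1 family (right) that reached 1 FPKM, with wild-type circles, knockout squares (1 library each) and asterisks on members; genes are ordered by log2 ratio. Anxa8 and Anxa1 have the longest shifts on the left and Anxa4 none, while Il18r1 and Il33 have the longest shifts on the right and Il1rap and Il1a are slightly lower in the knockout library.

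Ly6a encodes the surface protein Sca-1, which is held by a lipid anchor and is induced by interferons (chromosome 15, 74994877 to 74998031). Its level was 28.4 FPKM in wild-type and 116 FPKM in knockout cells, or 4.09-fold higher (counting interval 3.70 to 4.54; log2 ratio 1.995). Ly6a lies among near copies. Of the 906 words of 50 bases, the length of the reads, in its longest coding transcript, 10.04% also occurred in transcripts of other genes, Ly6c1 and Ly6i among them, against at most 0.29% on the same strand for any other member. The sources used here do not say how the authors' counting split such reads. Among 7 other Ly6 family genes at 1 FPKM or more, 1 was at least 2-fold higher, 0 lower and the median log2 ratio was 0.52. Ly6c1 was at 3.81 and 9.06 FPKM and Ly6c2 at 3.37 and 6.61 FPKM. Ly6e was at 215 and 314 FPKM and Lypd8, an abundant enterocyte product that keeps bacteria from the epithelium, at 2091 and 2992 FPKM. Ly6g6d was lower, at 1.26 and 0.5 FPKM.

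Interferon response genes were also mostly higher. Of 16 at 1 FPKM or more, 15 had a positive log2 ratio, 2 were at least 2-fold higher and the median was 0.74. Among all genes at that level, 53.4% had a positive log2 ratio and 2.61% were called higher. The 2 called interferon response genes were Gbp2, at 4.72 and 17.5 FPKM, and Irf7, at 29.5 and 65.8 FPKM. The summed level of the list was 479 FPKM for wild type and 639 FPKM for knockout. The part of the interferon response in the Ly6a difference was not tested.

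Other regenerative and fetal-like markers were also mostly higher. Of 30 listed, 24 reached 1 FPKM. Of these, 21 had a positive log2 ratio, 6 passed 2-fold upward and 0 downward, and the median log2 ratio was 0.85. Msln, which mesothelial cells also express, was at 0.92 and 19.2 FPKM, and Anxa8 has its values above. The small proline-rich protein genes Sprr2a3 and Sprr1a were at 27.6 and 84.3 FPKM and at 2.07 and 7.09 FPKM. Sprr2a3 belongs to a cluster of near copies, so its level is uncertain. The membrane protein gene Emp1 was at 5.99 and 17.6 FPKM and the EGF receptor ligand Areg at 12.8 and 26.7 FPKM. Sprr1a and Areg are named to complete the 6. Mmp7, which Paneth cells also express, was the most abundant at 384 and 309 FPKM. Some genes of the list were near 0, here chosen after their values were seen. The keratin gene Krt4 was at 0.1 and 0.19 FPKM and Spp1, which encodes osteopontin, was listed at 0 in the wild-type library and at 0.69 FPKM in the knockout library. The YAP targets Cyr61 and Ctgf, also chosen in this way, went in opposite directions, at 49.7 and 78.6 FPKM and at 3.09 and 2.03 FPKM.

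Several non-epithelial cell types can express the members. By the calling rule, the markers of mesothelial cells and fibroblasts were mostly past 2-fold in the members' direction. The same held for lymphatic endothelial markers and for macrophage and dendritic cell markers, which are given further below. All 9 mesothelial markers that reached 1 FPKM, of 11 with a row, passed 2-fold in the higher direction, with a median log2 ratio of 2.83. Of these, Msln, Lrrn4, Wt1, Nkain4, Gpm6a and Rspo1 reached 1 FPKM only in the knockout library. For them, passing the filter already required a higher level there. The 11 markers summed to 10.1 FPKM for wild type and 131 FPKM for knockout. Upk3b was at 1.27 and 26.1 FPKM, Igfbp6 at 4.9 and 40.8 FPKM and Upk1b at 1.05 and 10.6 FPKM. None of the 11 was listed at 0 in either library. Of 11 fibroblast markers at 1 FPKM or more, 9 passed 2-fold upward (median log2 ratio 2.03), and the sums over all 14 were 85.7 and 368 FPKM. Dcn was at 8.94 and 82.8 FPKM, Sparc at 10.4 and 47.8 FPKM and Vim at 29.0 and 92.3 FPKM, whereas Fbln1 was at 21.0 and 22.7 FPKM. No fibroblast marker was listed at 0.

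Vascular, myeloid and lymphocyte markers differed among themselves. Lymphatic endothelial markers summed to 4.63 and 52.6 FPKM, and the 5 of 6 that reached 1 FPKM were all at least 2-fold higher. Of these, Ccl21a, Pdpn, Flt4 and Mmrn1 reached it only in the knockout library. Prox1, which did not reach it, was lower, at 0.79 and 0.58 FPKM. Most of the knockout sum was Ccl21a, at 35.4 FPKM and listed at 0 in the wild-type library, a gene with near copies whose level is uncertain. Blood endothelial markers summed to 18.5 and 43.5 FPKM, with 3 of 8 past 2-fold by the calling rule and Plvap at 6.01 and 16.2 FPKM. Without the pseudocount, Pecam1, Cdh5, Kdr and Eng also exceeded 2-fold, at 2.20, 2.43, 2.92 and 2.25, while Esam was 1.53-fold higher. Macrophage and dendritic cell markers summed to 239 and 539 FPKM, with 9 of 13 past 2-fold and Lyz2 at 52.7 and 125 FPKM. Neutrophil markers were low, with sums of 10.9 and 18.1 FPKM, 0 of 4 past 2-fold and Ngp listed at 0 in both libraries. T cell markers summed to 62.8 and 107 FPKM and B and plasma cell markers to 583 and 815 FPKM, with 0 of 10 and 0 of 8 past 2-fold and median log2 ratios of 0.53 and 0.23. The part of each of these cell types in the members' differences was not tested.

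**Figure D3:**
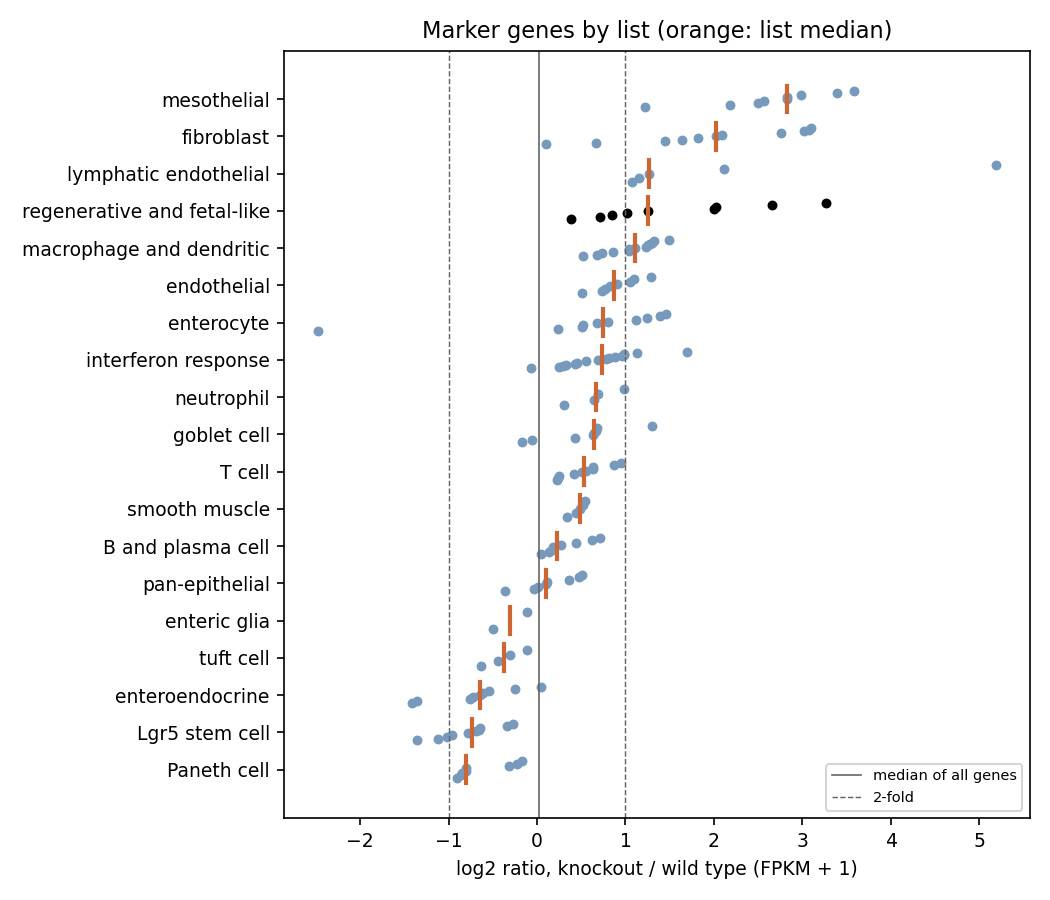
Log2 ratio (knockout over wild type, FPKM + 1) of single genes at 1 FPKM or more in the members (black) and in marker lists of cell types and of the interferon response (blue), with list medians as orange bars, the median of all genes as a solid line and 2-fold as dashed lines. The members, with a median of 1.25, lie between the mesothelial and fibroblast lists (2.83 and 2.03) and the pan-epithelial list (0.11). Nearest to them are the lymphatic endothelial list (1.27) and the macrophage and dendritic list (1.11). Lgr5 stem cell and Paneth cell medians lie below 0.

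Epithelial marker lists differed in direction. Pan-epithelial markers summed to 6271 FPKM for wild type and 7969 FPKM for knockout, with 0 of 8 past 2-fold, a median of 0.11 and Epcam at 706 and 711 FPKM. Lgr5 stem cell markers had negative log2 ratios in 10 of 10 genes, with a median of -0.73 and 3 at least 2-fold lower (Olfm4, Lgr5 and Msi1). Lgr5 itself was at 5.9 and 2.17 FPKM. Paneth cell markers had negative log2 ratios in 8 of 8 genes, with a median of -0.81 and 0 past 2-fold. They summed to 33875 FPKM for wild type and 19204 FPKM for knockout, the largest sums of the marker lists. For enterocyte markers the median log2 ratio was 0.74, and 4 of 10 passed 2-fold upward and 1 downward, the fatty acid binding protein gene Fabp1 at 97.8 and 16.8 FPKM. Srcap had 20.4 FPKM in wild-type and 11.3 FPKM in knockout cells. This was in the direction of the labels but within 2-fold, with a log2 ratio of -0.79.

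Set beside the summed markers, the members took different places. Slpi (10.2-fold) and Clu (8.51-fold) lay between the mesothelial sum, which was 13.0-fold higher, and the fibroblast sum, which was 4.30-fold higher. Anxa1 and Il33 also exceeded the fibroblast sum, and Ly6a at 4.09-fold lay just under it. Vim and Fbln1 made up much of that sum in the wild-type library. Without them, a choice made after seeing the data, the other 12 fibroblast markers went from 35.6 to 253 FPKM, or 7.1-fold, which lies above Anxa1 and Il33 and below Clu and Slpi. Anxa3 exceeded the macrophage and dendritic sum, which was 2.25-fold higher, while Anxa2, Anxa5 and Il1rn lay between that sum and the pan-epithelial sum, which was 1.27-fold higher. Also in that range were the interferon response (1.33-fold), B and plasma cell (1.40-fold), enterocyte (1.53-fold) and neutrophil (1.66-fold) sums. The smooth muscle and goblet cell sums (each 1.67-fold) and the T cell sum (1.70-fold) lay there too. Slpi amounted to 152% of the summed mesothelial markers for wild type and 119% for knockout, and Clu to 24.0% and 15.7%. A large part of that sum was Igfbp6, with 4.9 of 10.1 FPKM for wild type and 40.8 of 131 FPKM for knockout. Relative to all summed fibroblast markers, Ly6a was at 33.2% and 31.6%, whereas Clu went from 2.83% to 5.60% and Slpi from 17.9% to 42.4%. The steady share of Ly6a depends on Vim and Fbln1. Its 4.09-fold lay well under the 7.1-fold of the other 12 fibroblast markers, to which Clu at 8.51-fold was closer. The proportions given here compare levels per transcript length and do not assign transcripts to cells.

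**Figure D4:**
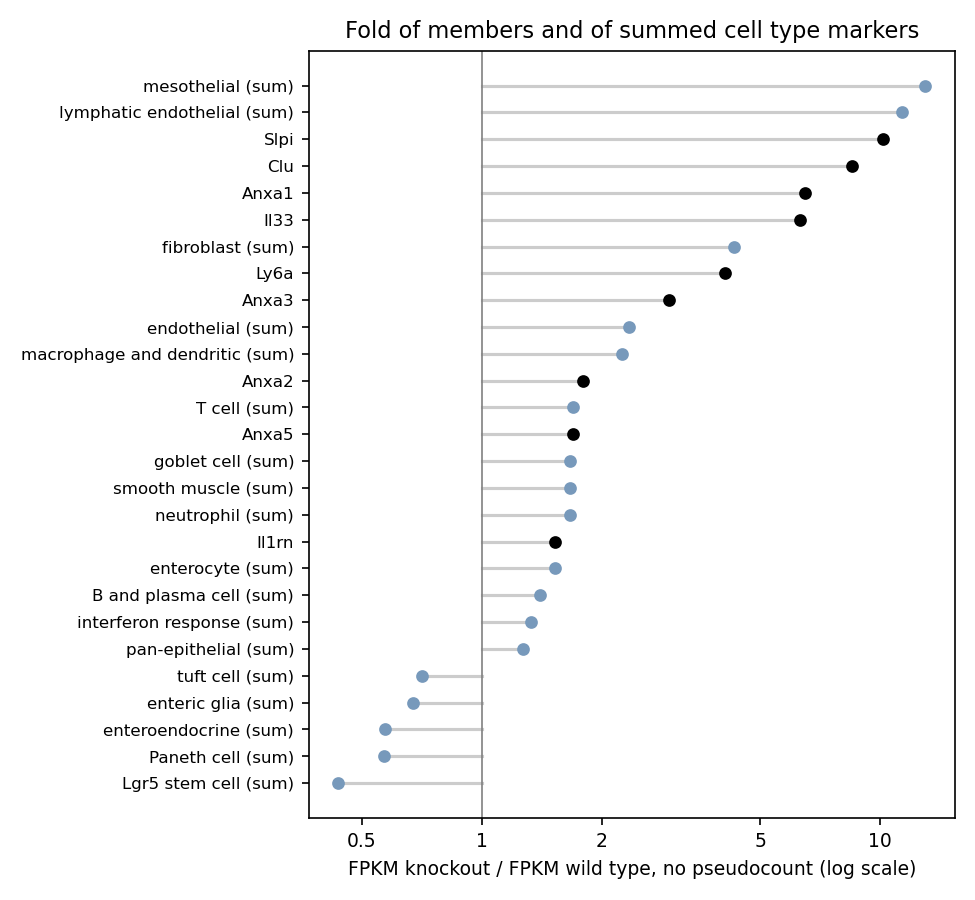
Fold of FPKM, knockout over wild type without pseudocount (log scale), for each member (black) and for the summed FPKM of each marker list (blue), in order. Slpi, Clu, Anxa1 and Il33 lie between the mesothelial sum and the sum of all fibroblast markers, and Anxa2, Anxa5 and Il1rn lie between 1.53-fold and 1.80-fold. Most of the lymphatic endothelial sum in the knockout library is Ccl21a, listed at 0 in the wild-type library.

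In the plane of both libraries' levels, the genes nearest to a member varied by member. By Euclidean distance in log2(FPKM + 1) over these 2 libraries, the nearest genes to Clu were the collagen genes Col6a2 (2.41 and 20.8 FPKM, distance 0.02) and Col6a1 (2.8 and 21.8 FPKM, 0.17). For Il33 they were Fkbp10 (0.34 and 2.22 FPKM) and Cd248 (0.38 and 2.21 FPKM), and for Anxa1 Dmkn (1.14 and 7.87 FPKM) and Efemp1 (1.4 and 8.96 FPKM). Ly6a lay nearest to the interferon-inducible gene Ifi27l2a (24.9 and 104 FPKM, 0.24). Next to Ly6a came Slc51a (31.1 and 94.0 FPKM, 0.33) and the fibroblast marker Vim (29.0 and 92.3 FPKM, 0.33). Slpi had no close neighbour, with Rarres2 (9.56 and 135 FPKM) nearest at 0.66. Anxa2 lay nearest to the goblet cell gene Fcgbp (231 and 367 FPKM, 0.13), Anxa5 to Slc9a2 and Il1rn to Fah. With only 2 points per gene, many genes are near one another by this measure.

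**Figure D5:**
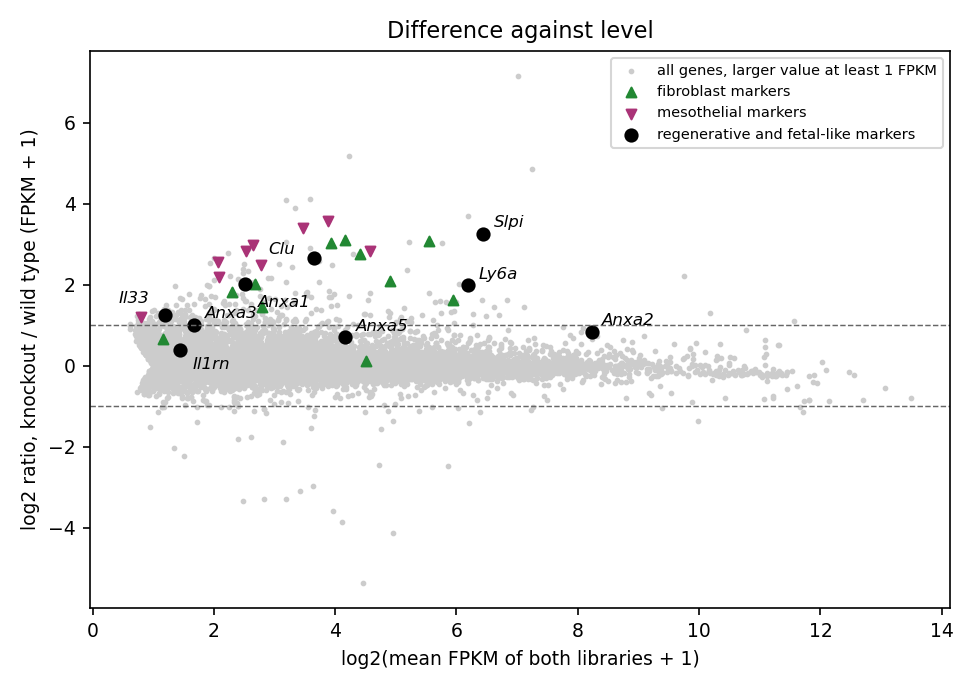
Log2 ratio (knockout over wild type, FPKM + 1) against log2(mean FPKM + 1) for genes that reach 1 FPKM in a library (grey), members (black, named), fibroblast markers (green) and mesothelial markers (purple); dashed lines mark 2-fold. Slpi, Clu, Anxa1 and Ly6a stand among the stromal and mesothelial markers above the grey cloud, and Anxa2, Anxa5 and Il1rn lie inside the 2-fold lines.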

How the data were processed

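RNA was sequenced as single-end 50 bp reads on a BGISEQ-500, per the labels' protocols. For each library the authors deposited FPKM values in a table of their own, per the file headers. The submitters' processing notes name the build mm10 and the tools HISAT, Bowtie2 and RSEM, with neither versions nor roles, and the sources used here give no annotation or strand setting. Of 17840 Entrez identifiers, 17795 matched the RefSeq gene table of GRCm38.p6, which gave coordinates.

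The 2 tables were joined on the gene identifier. The sums of FPKM were 672183 (wild type) and 633837 (knockout). Depth was read from the steps between low values of single-transcript genes shorter than 1500 nucleotides (GENCODE M21), where 71.1% and 73.9% of values lay within 0.2 of a whole read. Each step was the best fit to these same values, and part of any values would lie that near a whole read. These percentages are therefore no independent check of the steps. The fitted steps imply about 17300000 and 17100000 reads on genes. Read numbers of members use their longest coding transcript, are approximate, and give intervals for counting error only.

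Ratios are log2(knockout FPKM + 1) minus log2(wild-type FPKM + 1), which understates changes of low genes, and printed folds have no pseudocount. With 1 library per genotype no test was made. The members, lists, motifs and rules were chosen with earlier results of these data known. The genes named were the members, up to 4 others per related list with the largest absolute ratios, the most abundant of each such list by mean level, up to 4 of the most abundant markers per cell type and those at 0, and the nearest genes in level. Others, such as Sprr1a, Areg, Lgr5, Msi1 and Fabp1, were named after their values were seen. Of the fixed lists, markers of T cells, B and plasma cells, smooth muscle, glia, goblet, enteroendocrine and tuft cells had medians of 0.53, 0.23, 0.49, -0.31, 0.64, -0.65 and -0.37. Alternatives were other pseudocounts, filters, a 3-fold rule and rescalings. Python 3.11.15, pandas 2.3.3, numpy 2.4.6 and scipy 1.17.1 were used. The calling rule was tried on simulated data with large planted changes, counting noise alone and no genes of low wild-type level. That trial does not cover the low members, those near the cut or the variation between mice.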

Additional observations from a re-analysis of the deposited data

How the results depend on the processing

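The count of 6 members at least 2-fold higher was 3 when the larger value had to reach 10 FPKM (Slpi, Clu and Ly6a, the called members that reach it), and it stayed within 1.5 times under the other alternatives, with 4 under a pseudocount of 5 FPKM and 4 under a 3-fold rule. No alternative gave a member that was lower. The median log2 ratio of the members, 1.25, was 0.83 with a pseudocount of 5 FPKM, which compresses low values. All 54 alternative log2 ratios of single members were positive, and 3 of them lost the 2-fold call: Anxa3 at 0.44 and Il33 at 0.43 with a pseudocount of 5 FPKM, and Anxa3 at 0.99 after rescaling to the upper quartile. Rescaling both libraries to a sum of 1000000 gave the highest values among the rescalings, such as 3.38 for Slpi. For genes that reached 10 FPKM in both libraries the median, -0.02, lay between -0.05 and 0.07 under the rescalings. The number of all genes called higher, 308, was 656 with a pseudocount of 0.1 FPKM and 108 with 5 FPKM. The summed fibroblast markers were 4.30-fold higher with all genes and 7.1-fold without Vim and Fbln1, an alternative chosen after seeing the data. No paired analysis was possible because there is 1 library per genotype. Depth limits Il33, Anxa1, Anxa3 and Il1rn, which rest on roughly 15 to 58 reads in the wild-type library.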
